A study of Mus musculus with 23 samples.

Results

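Glutathione transferases attach the tripeptide glutathione to reactive, electron-poor compounds, which makes them more soluble and easier to export. Besides the alpha and mu classes there are pi, theta, omega, kappa and zeta classes and a separate family of membrane-bound microsomal enzymes. Here 10 mouse genes of these classes were followed in TM4 cells: Gstp1 (pi), Gstt1 and Gstt3 (theta), Gsto1 and Gsto2 (omega), Gstk1 (kappa), Gstz1 (zeta), and Mgst1, Mgst2 and Mgst3 (microsomal). They were listed by gene class from 20145 genes named on the array, and 13 probes measured them. The list does not hold every gene of these classes. Gstp2, Gstp3, Gstt2 and Gstt4 are also on the array and are counted among the class relatives below. In the testis, Sertoli cells nurse the developing germ cells and form the barrier that keeps many blood-borne compounds away from them, and conjugation to glutathione is 1 of their defences.

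TM4 is an immortalized mouse Sertoli cell line. The cultures received 1 of 5 compounds (BDB, DINCH, DOM, DOS or MEHP) at 100 μM for 48 hr, dissolved in DMSO, and the control cultures received the vehicle alone; DMSO was at 1% in all 6 groups. MEHP is the monoester formed in the body from the phthalate plasticizer DEHP, DINCH is a commercial diester of cyclohexane dicarboxylic acid, DOM is dioctyl maleate, BDB is butanediol dibenzoate and DOS is dioctyl succinate. DOM and DOS carry the same alcohol chains and differ in the acid between them, which holds a carbon-carbon double bond in maleate and none in succinate. RNA of each culture was hybridized to its own 1-colour array, with 4 biological replicates per group and 3 for DOS, 1 DOS replicate having been left out by the authors for high background. A single dose, a single time point and a single cell line were used.

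A level is given here as log2 of the background-subtracted signal minus the 75th percentile of that array, so 1 unit is a doubling relative to the other probes of the array. The 75th percentile lay between 204.6 and 350.7 signal units on the 23 arrays, and 43.4% to 52.2% of spots were well above background. All 13 member probes were well above background on all 23 arrays, none was saturated and none was marked as an outlier spot, so no member was lost to a filter. Among the Sertoli cell markers, Sox9, Inhbb, Inha, Gata4, Kitl, Dhh, Rhox5 and Nr5a1 were above background on every DMSO array, Clu was above it on 3 of the 4, and Amh, Trf, Wt1, Fshr and Cldn11 on none. Over all 23 arrays, Sox9 was above it on 20, Rhox5 on 21, Clu on 12, and Amh and Trf on 1 each. Of the markers of other testis cells, Cyp17a1 (Leydig), Prm1 (germ cells), Acta2 (peritubular myoid) and Csf1r (macrophages) were above background on all 23 arrays, while Cyp11a1, Hsd3b1, Lhcgr, Ddx4, Dazl, Kit, Myh11, Ptprc and Adgre1 were above it on none. Star (Leydig) was above it on 12 of the 23, 3 of them DMSO arrays. Sycp3 (germ cells) and Des (peritubular myoid) were above it on 4 each. Their part in the results was not tested. In a whole-culture extract, fewer cells of a type and less RNA per cell cannot be told apart.

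The sequences just before the start sites are shown for the 3 called members with the widest range of group means, Mgst1, Gstt1 and Gsto2, since many detoxification genes are known to be switched on through short motifs there. Each is the 250 bases upstream of the first listed RefSeq start in build GRCm38.p6, read 5′ to 3′ on the strand of the gene, at chr6:138140277-138140526 on the plus strand for Mgst1, chr10:75797732-75797981 on the minus strand for Gstt1 and chr19:47865295-47865544 on the plus strand for Gsto2. Capitals mark the core of the antioxidant response element, the motif bound by NRF2.
Mgst1: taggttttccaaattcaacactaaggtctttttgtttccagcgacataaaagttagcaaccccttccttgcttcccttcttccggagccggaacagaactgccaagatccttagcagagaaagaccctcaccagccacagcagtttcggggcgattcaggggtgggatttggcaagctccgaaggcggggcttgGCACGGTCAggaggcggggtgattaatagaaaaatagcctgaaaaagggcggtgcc
Gstt1: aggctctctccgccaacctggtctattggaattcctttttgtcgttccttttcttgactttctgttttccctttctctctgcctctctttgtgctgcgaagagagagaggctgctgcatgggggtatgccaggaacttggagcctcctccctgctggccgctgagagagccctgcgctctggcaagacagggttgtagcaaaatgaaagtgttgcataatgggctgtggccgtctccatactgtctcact
Gsto2: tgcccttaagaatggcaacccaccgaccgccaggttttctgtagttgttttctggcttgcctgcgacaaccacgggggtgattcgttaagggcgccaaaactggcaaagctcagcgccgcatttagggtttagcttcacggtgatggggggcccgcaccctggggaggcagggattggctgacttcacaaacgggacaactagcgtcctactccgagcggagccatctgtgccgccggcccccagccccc

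Windows of 300 bases, 250 before and 50 after a start, were searched on both strands; the 10 members had 14 such windows. The antioxidant response element core TGACNNNGC was found once, in the Mgst1 window printed above, where it reads TGACCGTGC on the opposite strand. The base of the match farthest upstream of the start site lies at position -56. This core was present in 12.4% of all 32851 RefSeq windows. Only these exact letters were searched. Stretches that differ from them, such as TGAGTCAGC in the Gstp1 window, were not counted. The core of the xenobiotic response element, GCGTG, which the aryl hydrocarbon receptor binds, was found in the windows of Gstp1 (position -13) and Mgst3 (position -22), against 32.4% of all windows. The PPAR response element, searched as a direct repeat with 1 base between the repeats, was in no member window and in 0.381% of all windows. These are matches of letters in 1 window per start, and none of the matches overlapped another.

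**Figure D1:**
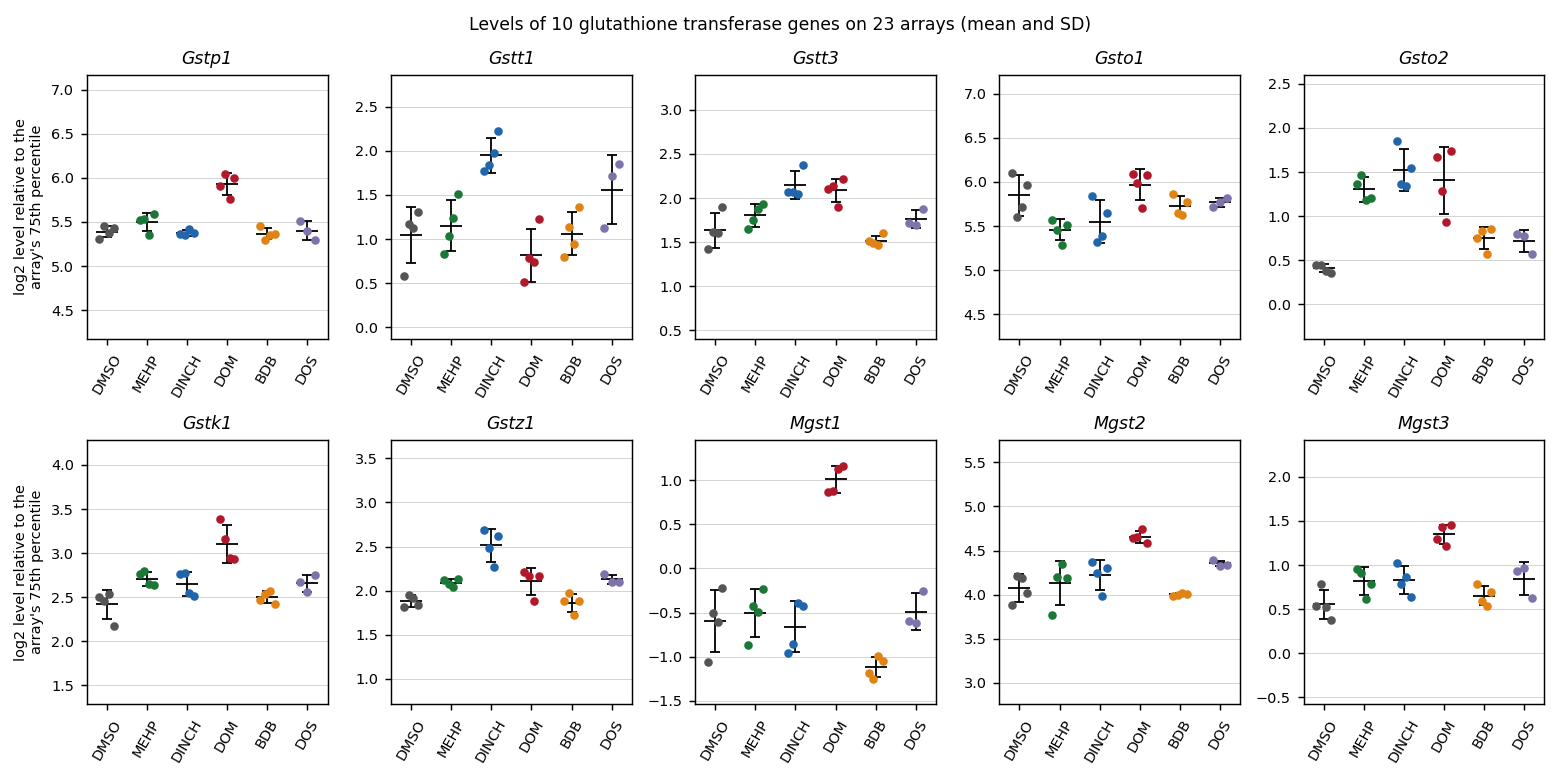
Levels of the 10 genes on each of the 23 arrays, by their brightest probe, on a log2 scale relative to the 75th percentile of the array; each dot is 1 array, the bar is the group mean and the whiskers are the SD, and all panels span 3 log2 units. Mgst1 on the DOM arrays lay between 0.87 and 1.16 and on all other arrays at or below -0.22, while Gstt1 was highest with DINCH and lowest with DOM.

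Of the microsomal enzymes, Mgst1 and Mgst3 rose with DOM. Mgst1, a membrane enzyme that both conjugates electrophiles and reduces lipid peroxides, showed the largest change of any member in any comparison with DMSO, a 3.05-fold rise. Mgst3, whose product mainly reduces lipid hydroperoxides, rose 1.73-fold with the same compound. Mgst2, which can make leukotriene C4, was 1.49-fold higher with DOM and so just short of the 1.5-fold minimum. None of the 3 was called with MEHP, DINCH, BDB or DOS.

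The log2 level of Mgst1 was 0.87, 0.88, 1.13 and 1.16 on the DOM arrays. It was -1.06, -0.50, -0.61 and -0.22 on the DMSO arrays. All 4 DOM arrays thus lay above all 19 others, and the gap between the lowest DOM and the highest DMSO array was wider than the spread within either group. The difference was 1.61 ± 0.17 log2 units (SE, limma, adjusted p = 4.2e-04, n = 4 and 4), and within the 3 slides it was 1.38 to 1.93. A second Mgst1 probe gave 1.47 ± 0.19 (adjusted p = 7.2e-04). The group means ran from DOM (1.01 ± 0.16, SD) through DOS (-0.49 ± 0.21), MEHP (-0.51 ± 0.27), DMSO (-0.60 ± 0.35) and DINCH (-0.66 ± 0.29) to BDB (-1.12 ± 0.12). The middle 4 groups overlapped one another. BDB was 0.52 log2 units below DMSO with 2 of its 4 arrays below every DMSO array, a difference that did not pass the adjustment (limma, adjusted p = 0.195).

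Mgst3 read 1.30, 1.43, 1.22 and 1.45 with DOM, and 0.54, 0.78, 0.52 and 0.38 with DMSO. The DOM arrays again stood above every other array. Its difference from DMSO was 0.79 ± 0.11 log2 units (SE, limma, adjusted p = 0.0012), and its dimmer probe gave 1.04 ± 0.17 (adjusted p = 0.0022). With MEHP, DINCH and DOS the brighter probe was 0.26, 0.27 and 0.29 log2 units above DMSO, with overlapping arrays and adjusted p of 0.303, 0.199 and 0.740. Mgst2 read 4.64, 4.65, 4.74 and 4.58 with DOM and between 3.88 and 4.21 with DMSO. Its difference of 0.58 ± 0.10 passed the adjusted p (0.0035) but not the minimum fold, and its DOM arrays too lay above all others.

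Gsto2 was the 1 member called with 3 compounds. Omega-class enzymes carry a cysteine in place of the usual active-site residue and act as thioltransferases, and GSTO2 is known for returning dehydroascorbate to vitamin C. It rose 1.86-fold with MEHP, 2.17-fold with DINCH and 2.00-fold with DOM. Its neighbour Gsto1, which lies next to it on the chromosome with no gene between them, was called with none of the 5 compounds.

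The DMSO arrays were tightly grouped for Gsto2, at 0.44, 0.45, 0.38 and 0.36. The MEHP arrays read 1.36, 1.47, 1.18 and 1.20, the DINCH arrays 1.85, 1.36, 1.34 and 1.55, and the DOM arrays 1.67, 1.28, 0.93 and 1.74. All 12 of these lay above all BDB and DOS arrays, which read 0.57 to 0.85 and 0.57 to 0.80, and all 19 treated arrays lay above the highest DMSO array. The differences from DMSO were 0.90 ± 0.09 log2 units for MEHP (SE, limma, adjusted p = 0.0058), 1.12 ± 0.12 for DINCH (adjusted p = 0.0031) and 1.00 ± 0.17 for DOM (adjusted p = 0.0028). Within slides they were 0.76 to 0.98, 0.94 to 1.41 and 0.52 to 1.38. For BDB the difference was 0.34 ± 0.09 (adjusted p = 0.13) and for DOS 0.31 ± 0.10 (adjusted p = 0.573). Neither was called. No array of either overlapped DMSO, and the share of all genes separated in this way was not counted.

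For Gsto1 the MEHP arrays read 5.57, 5.46, 5.29 and 5.51 and the DMSO arrays 6.10, 5.60, 5.72 and 5.97. All 4 MEHP arrays were below all DMSO arrays, a difference of -0.39 ± 0.12 log2 units that did not pass the adjustment (limma, adjusted p = 0.155). With DINCH it was -0.30, with DOM 0.12, with BDB -0.12 and with DOS -0.08, each with overlapping arrays. The paired omega genes therefore gave differences of opposite sign with MEHP, DINCH, BDB and DOS, and of the same sign with DOM. Of the differences of opposite sign, only those of Gsto2 with MEHP and DINCH passed.

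Among the theta genes, whose enzymes act on small halogenated molecules, Gstt1 rose with DINCH. It was 1.87-fold higher than with DMSO. Gstt3, the next gene on the same chromosome, was 1.42-fold higher with DINCH and 1.37-fold higher with DOM, both under the minimum fold. Gstt1 with DOM was on the other side of DMSO, at -0.23 log2 units.

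Gstt1 read 1.77, 1.84, 1.98 and 2.22 on the DINCH arrays and 0.58, 1.17, 1.13 and 1.31 on the DMSO arrays, with no overlap. The difference was 0.90 ± 0.17 log2 units (SE, limma, adjusted p = 0.0137), and 0.69 to 1.18 within slides. DOM read 0.51, 0.78, 0.74 and 1.23, which overlapped DMSO (adjusted p = 0.392). DOS read 1.12, 1.71 and 1.85, the second highest mean at 1.56 ± 0.39 (SD), and its difference of 0.51 from DMSO had an adjusted p of 0.701. The SD of Gstt1 ran from 0.20 to 0.39 over the 6 groups, and the latter, in DOS, was the largest of any member and group by the brightest probes. The dimmer Mgst1 probe had an SD of 0.42 in DOS. Replicate 1 was the lowest array of its group in all 6 groups. All replicate 1 arrays lay on slide 1, and the cause was not tested.

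Gstt3 varied less. It read 2.07, 2.07, 2.05 and 2.38 with DINCH, 2.10, 2.14, 1.90 and 2.21 with DOM and 1.42, 1.62, 1.60 and 1.90 with DMSO. The differences were 0.51 ± 0.13 (limma, adjusted p = 0.0377) and 0.45 ± 0.12 (adjusted p = 0.0223). In DINCH all arrays stood above DMSO, and in DOM the lowest array, at 1.90, was level with the highest DMSO array to 2 decimals.

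The 3 remaining enzymes each have a setting of their own. Gstz1 encodes maleylacetoacetate isomerase, which works in the breakdown of tyrosine, and it rose 1.55-fold with DINCH. Gstk1 encodes the kappa enzyme of mitochondria and peroxisomes, and it rose 1.61-fold with DOM. Gstp1, the pi enzyme that is a major electrophile-conjugating protein in many tissues, was 1.45-fold higher with DOM, under the minimum fold.

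For Gstz1 the DINCH arrays read 2.69, 2.48, 2.27 and 2.62, above all arrays of the other groups, and the DMSO arrays read 1.81, 1.95, 1.92 and 1.84. The difference was 0.63 ± 0.11 log2 units (SE, limma, adjusted p = 0.0112) and 0.54 to 0.88 within slides. It no longer passed without DINCH replicate 1 (0.57 log2 units, under the minimum fold). Gstk1 read 3.39, 3.16, 2.94 and 2.93 with DOM and 2.50, 2.46, 2.54 and 2.18 with DMSO. Its difference was 0.69 ± 0.13 (adjusted p = 0.0051) and no other array reached the lowest DOM array. Gstp1 read 5.91, 6.04, 5.76 and 6.00 with DOM against 5.31 to 5.45 with DMSO, a difference of 0.54 ± 0.10 (adjusted p = 0.0035) with a second probe at 0.50. Gstp1 is nearly identical to Gstp2, the gene beside it, so its probes may also take up transcripts of that copy. The Gstp2 probe had means of 7.96 ± 0.13 (SD) with DOM and 7.59 ± 0.09 with DMSO, and Gstp2 was not called.

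**Figure D2:**
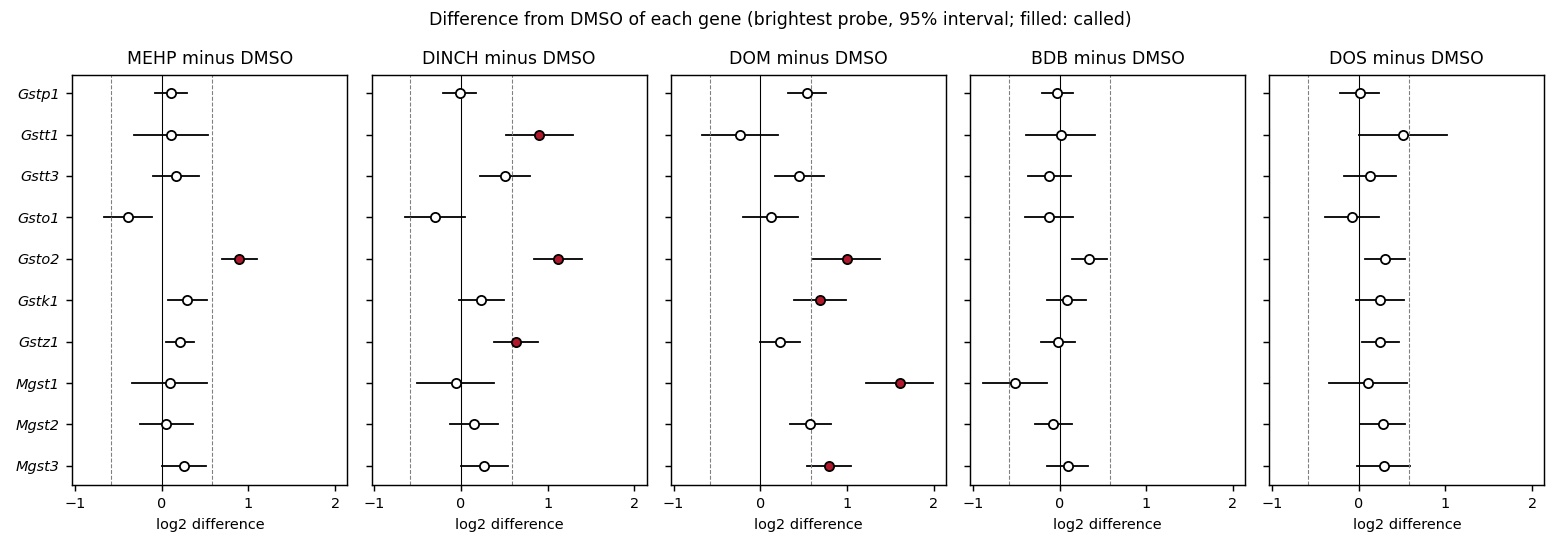
Difference of each gene from DMSO in log2 units for the 5 compounds, by the brightest probe; lines are 95% intervals from limma, filled points were called and dashed lines mark 1.5-fold. DOM has 4 filled points, DINCH 3 and MEHP 1 (Gsto2), and BDB and DOS have none.

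By compound, 1 of the 10 members was called with MEHP, where 1.69% of 11948 genes tested were called. With DINCH 3 of 10 were called, against 8.26% of 11913. With DOM 4 of 10 were called, against 20.5% of 12005, and 3 more (Gstp1, Gstt3 and Mgst2) passed the adjusted p without the fold, so that 7 of 10 were at an adjusted p below 0.05 where 35.5% of all genes were. All 8 calls were rises. The median difference of the 10 members was 0.14 log2 units with MEHP, 0.25 with DINCH and 0.56 with DOM, and that of all genes lay between -0.03 and 0 in the 3 comparisons. All comparisons with DMSO share the same 4 DMSO arrays, so a chance deviation of those arrays enters each of them. MEHP, BDB and DINCH occupied rows 1 and 3 of the slides and DMSO, DOM and DOS rows 2 and 4, so for MEHP, BDB and DINCH the row and the treatment cannot be told apart.

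With BDB and with DOS no member was called, and 0% of all genes were called in either comparison by limma. At an unadjusted p below 0.05, 2 of 10 members differed with BDB (Gsto2 higher, Mgst1 lower) and 16.3% of all genes did. With DOS 3 of 10 did (Gsto2, Gstz1 and Mgst2, all higher) and 6.34% of all genes did. The median difference of the members was -0.02 log2 units with BDB and 0.24 with DOS, where that of all genes was -0.03 and -0.01. Above 0 lay 4 of 10 members with BDB and 9 of 10 with DOS, where 42.8% and 47.8% of all genes did. The members' median with DOS was close to their 0.25 with DINCH. The 10 differences ran from -0.52 to 0.34 with BDB and from -0.08 to 0.51 with DOS.

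Over the 6 groups, the mean was highest with DOM for 6 members (Gstp1, Gsto1, Gstk1, Mgst1, Mgst2 and Mgst3) and highest with DINCH for the other 4 (Gstt1, Gstt3, Gsto2 and Gstz1). The matching share of all genes was not counted, so this ranking only describes the members. For Gsto1 the DOM and DMSO arrays overlapped, with a difference of 0.12 log2 units (limma, adjusted p = 0.54). For 5 members (Gstk1, Gstp1, Mgst1, Mgst2 and Mgst3) every DOM array lay above each of the 19 other arrays, which held for 8.2% of all genes tested. Every DINCH array stood above the rest for 1 member, Gstz1, and for 1.65% of all genes.

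The compounds were then compared with each other at the same dose and time, for 3 pairs. Between DOM and DOS, the maleate and the succinate, 4 of 10 members differed, where 15.2% of genes did. Mgst1 was 2.83-fold higher with DOM, Gsto2 1.61-fold higher and Gstt1 1.67-fold lower, and Mgst3 was called through its dimmer probe (1.64-fold higher) while its brighter one gave 1.42-fold. For Mgst1 the difference was 1.5 ± 0.14 log2 units (SE, limma, adjusted p = 0.0015), and the arrays did not overlap. It was 1.47 and 1.60 in the 2 slides that held both groups.

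The Gsto2 and Gstt1 differences between DOM and DOS were close to the threshold. Gsto2 differed by 0.69 ± 0.20 (adjusted p = 0.0436) with no overlap and by 0.67 and 1.07 within slides. With the replicate number as a block it was 0.73 and no longer called (adjusted p = 0.0522), with the slide row as a block it was 0.68 (adjusted p = 0.0676), and it was also lost without DOM replicates 1, 2 or 4 or any 1 DOS replicate. Gstt1 differed by -0.74 ± 0.22 (adjusted p = 0.0467) with overlapping arrays and by -0.54 and -0.47 within slides, and it was lost with the slide as a block, without DOM replicates 1, 2 or 3 and without DOS replicates 3 or 4. For Gstz1 the difference was -0.02 log2 units, with a 95% interval from -0.29 to 0.25.

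Between DOM and DINCH, 3 of 10 members were called against 23.3% of genes. Mgst1 was 3.18-fold higher with DOM (1.67 ± 0.16 log2 units, limma, adjusted p = 9.8e-05). Gstt1 was 2.20-fold lower with DOM (-1.14 ± 0.17, adjusted p = 8.7e-04), and neither gene had overlapping arrays. Mgst3 was called through its dimmer probe (0.80 ± 0.12, adjusted p = 0.0010). Gsto2 differed by -0.12 log2 units with an interval from -0.55 to 0.31, and Gstt3 by -0.05 with an interval from -0.32 to 0.21. The adjacent Gstt1 and Gstt3 were therefore called and not called in the same comparison. DOM and DINCH also lay in different slide rows, which cannot be told apart from the compounds.

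Between MEHP and DINCH, which shared slide rows, 1 of 10 members was called against 2.4% of genes. This was Gstt1, 1.74-fold lower with MEHP (-0.80 ± 0.16 log2 units, limma, adjusted p = 0.0361), with no overlap and -0.83 to -0.59 within slides. It was lost when any 1 DINCH array or MEHP replicate 1, 2 or 3 was left out. Gstz1 was 0.43 log2 units lower with MEHP and Gstt3 0.34 lower, both without overlap and neither past the adjustment (adjusted p of 0.0724 and 0.139). Gsto2 differed by -0.22, with an interval from -0.52 to 0.07.

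**Figure D3:**
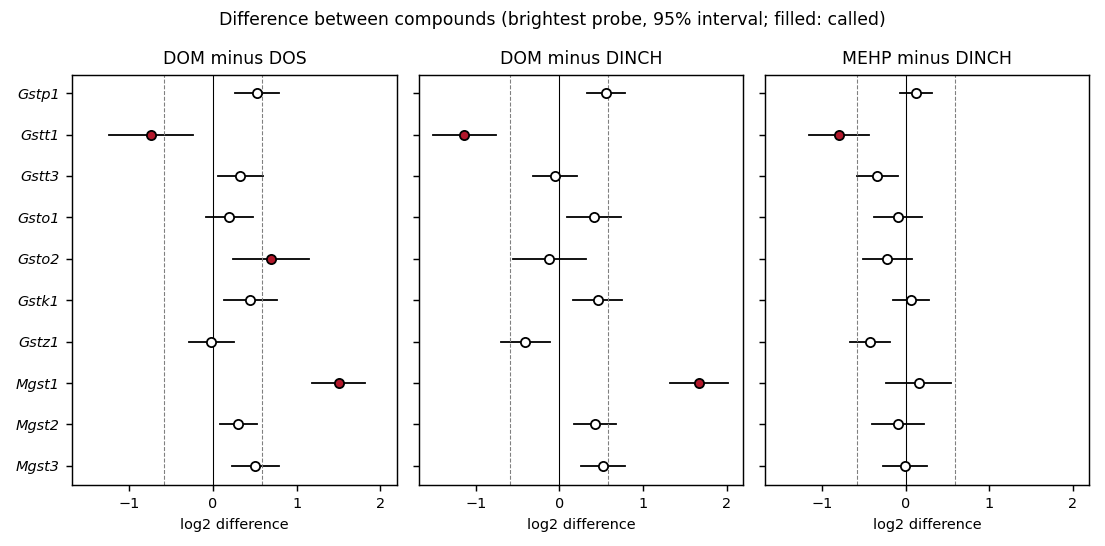
Differences between pairs of compounds in log2 units, by the brightest probe of each gene; lines are 95% intervals from limma, filled points were called and dashed lines mark 1.5-fold. Mgst1 lies to the right in both comparisons of DOM, at 1.5 and 1.67, and Gstt1 to the left in all 3 comparisons; Mgst3, called through its dimmer probe against DOS and DINCH, is drawn open.

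Gstp1, Mgst1 and Mgst3 had a pair of probes each, and the other 7 members 1 probe. Over the 23 arrays the probes of a pair correlated at 0.926 for Gstp1, 0.983 for Mgst1 and 0.965 for Mgst3, as a description over arrays that include all 6 groups. For each pair the probes gave the same direction with DOM. For some small differences from DMSO, none of them called, the brighter and dimmer probes differed in sign. These were Mgst1 with MEHP (0.09 and -0.05 log2 units) and DOS (0.11 and -0.03). The others were Gstp1 with DINCH (-0.02 and 0.03) and BDB (-0.02 and 0.01). The calls of Mgst3 between compounds rest on the dimmer probe, as stated above.

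**Figure D4:**
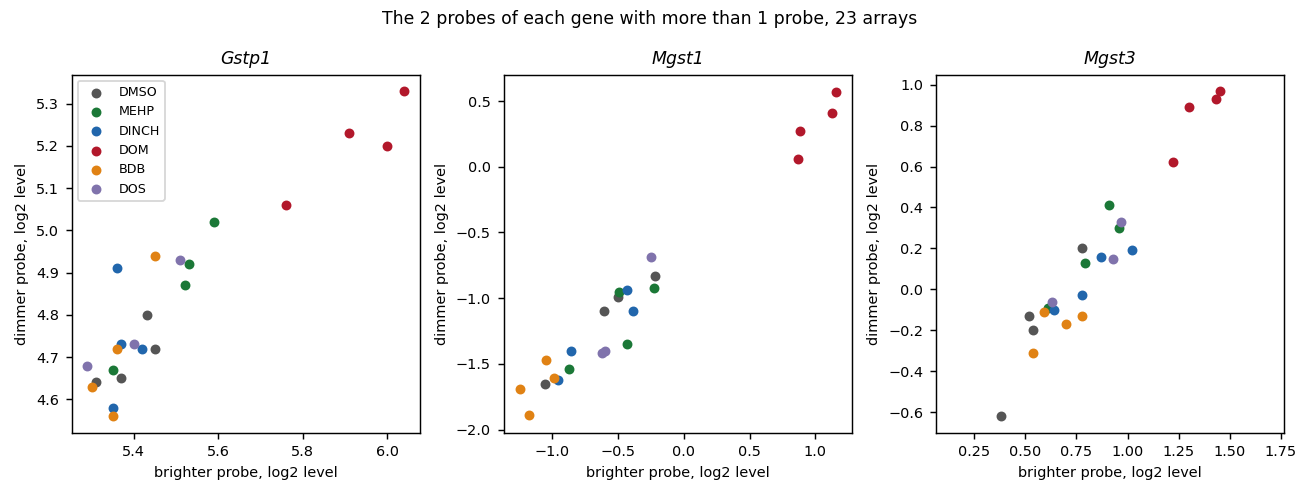
Log2 levels of the dimmer probe against the brighter probe for the 3 genes with a pair of probes, 1 dot per array, coloured by group. The 4 DOM arrays are at the upper right in each panel, and the correlations are 0.926, 0.983 and 0.965.

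Genes around these enzymes were described by lists. Of 11 alpha and mu transferase genes, the main cytosolic classes, 6 were tested. With DOM all 6 were called as rises, where 20.5% of all genes were called, with a median of 1.07 log2 units. Gsta4, which conjugates the lipid peroxidation product hydroxynonenal, rose by 2.77, Gstm1 by 2.03 and Gstm4 by 1.28. With DINCH 2 of the 6 were called, where 8.26% of all genes were, Gsta4 higher by 0.79 and Gstm1 by 0.70. With MEHP, BDB and DOS none was called. Between DOM and DOS 4 of the 6 were called, all higher with DOM, where 15.2% of all genes were called, with Gsta4 at 2.53.

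Of 17 genes for glutathione supply, recycling and peroxidases, 14 were tested. With DOM 3 of the 14 were called, where 20.5% of all genes were, and 6 of the 14 lay above 0. With DINCH 2 of the 14 were called, where 8.26% of all genes were. With DOM, Gclm, the modifier subunit of the rate-limiting enzyme of glutathione synthesis, rose by 0.95 log2 units and Abcc1, an exporter of glutathione conjugates, by 0.91, while Chac1, which degrades glutathione, fell by 0.67. With DINCH, Slc7a11, the cystine importer, fell by 1.61 and Gss, the second enzyme of glutathione synthesis, fell by 0.60. None of the 14 was called with MEHP, BDB or DOS, and the median of the list was between -0.05 and 0.02 with every compound. Slc7a11 was also lower with DINCH than with DOM and with MEHP, by 1.41 and 1.56 log2 units.

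Of 10 class relatives of the members, 5 were tested, and 1 was called with each of MEHP, DINCH and DOM. The shares of all genes called were 1.69%, 8.26% and 20.5%. Gdap1l1, which belongs to a family related in sequence to the transferases, fell by 1.07 log2 units with MEHP, by 0.89 with DINCH and by 1.26 with DOM, and no relative was called higher than DMSO with any compound. Of the 4 tyrosine breakdown enzymes that work around Gstz1, 2 were tested. With DOM 1 of these was called, where 20.5% of all genes were. This was Fah, which takes the product of the Gstz1 enzyme, and it rose by 0.64. With DINCH, where Gstz1 rose, the level of Fah was 2.14 ± 0.07 (SD) against 1.62 ± 0.04 with DMSO and it was not called. With MEHP, where Gstz1 was not called, Fah was at 2.18 ± 0.15 (SD) and was not called either.

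The patterns most like those of the 3 called members with the widest range of group means were taken by Pearson correlation over the 23 arrays among 12166 named genes above background. The arrays fall into 6 groups, so these values describe the group pattern and carry no test. For Mgst1 (a range of 2.13 log2 units) they were Mxra8, a cell-surface protein, at 0.956, Epm2aip1 at 0.952 and Cmtm3 at 0.949. For Gstt1 (1.14) they were Psmb8 at 0.889, Lctl at 0.855 and Psmb9 at 0.853, Psmb8 and Psmb9 being subunits of the immunoproteasome. For Gsto2 (1.12) they were Isg20, an interferon-inducible exonuclease, at 0.952, Dnpep, an aminopeptidase, at 0.913 and Cryab, a small heat shock protein, at 0.912. Each of the 3 members thus had different nearest genes.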

How the data were processed

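The authors labelled RNA with Cy3, hybridized 23 1-colour Agilent mouse arrays (3 slides) and extracted spot intensities with Feature Extraction 11.5.1.1, which subtracted background and removed spatial trends; the deposited intensity values were linear and unscaled. A log2 table that the authors deposited beside them (75th percentile shift, each probe centred on its median) had columns that correlated at 0.9996 or more with the matching arrays, and it was used as an alternative. Here the 75th percentile of the array (59305 non-control spots) was subtracted from the log2 processed intensity (floor of 1). Outlier spots (102 to 187 on an array) were removed before averaging the spots of each probe. RefSeq accessions named 26582 of 55681 probes; each gene is represented by its brightest probe. Array coordinates were of another build (mm9) than the RefSeq promoter table and were not used.

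Each pair of groups was fitted alone with limma 3.58.1 in R 4.3.3 (lmFit, eBayes). Probes entered the test if, in at least 1 of the groups, each array had them well above background and not under the 20th percentile. Benjamini-Hochberg adjustment ran over all tested probes, and a gene was called if any probe had an adjusted p below 0.05 and more than 1.5-fold change. The steps were tested on simulated data. All 10 members are named. From each list, up to 3 called genes with the largest change per comparison are named. Gstp2 is named as the copy of Gstp1, and Fah with DINCH and MEHP after its values were seen. Members and lists were chosen with earlier results of these data known.

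The reported fits used no pairing, and the replicate number entered only as a block in an alternative. Deviations from the group means of same-numbered arrays were correlated to see where replicate numbers may mark pairs. They correlated above 0.1 in every pair for DINCH (0.17 to 0.50), BDB (0.25 to 0.43) and DOS (0.20 to 0.45) against DMSO. The same held for DOM against DOS (0.10 to 0.40). As alternatives, normexp background correction (offset 50) and quantile normalization were run, as were no filter, detection on 1 array, blocking by slide, slide row or replicate, a joint fit of all groups, keeping outlier spots, brightest probes only, a variance trend, the deposited table, no minimum fold, and leaving out each array. Figures were drawn with matplotlib 3.10.9. Protein and probe sequences were not used here, and 1 marker is not reported here. With arrays, the number of replicates limits the precision.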

Additional observations from a re-analysis of the deposited data

Results flagged for a closer look

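In 2 of the 50 combinations of a member and a group of 4 arrays, 1 array lay far from the other 3, by Dixon's gap test, and about 1 in 20 such groups would do so by chance. Gstt3 read 2.38 on DINCH replicate 4 and 2.05 to 2.07 on the other 3 arrays. Gstz1 read 1.88 on DOM replicate 3 and 2.17 to 2.21 on the others.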

How the results depend on the processing

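Of 285 alternatives computed for the member calls made by a brightest probe, 254 kept the call, 31 lost it and 0 reversed direction; the calls of Mgst1, Mgst3, Gstk1 and Gsto2 with DOM, of Gsto2 with DINCH, and of Mgst1 and Gstt1 between DOM and DINCH and Mgst1 between DOM and DOS were kept throughout. The calls of Mgst3 between compounds, made by its dimmer probe, are not among these: both were lost with only the brightest probe of each gene, and that between DOM and DOS also with no filter on dim probes. With no filter on dim probes the members called were 0 for MEHP, 1 for DINCH, 1 between DOM and DOS and 0 between MEHP and DINCH; this setting tests 20145 genes. Detection on 1 array left 2 between DOM and DOS and 0 between MEHP and DINCH. With no minimum fold 7 were called for DOM and 7 between DOM and DINCH. That setting relaxes the rule on the same fit, so it could not lose a call. Keeping outlier spots left the member values unchanged, as no member spot was an outlier. Both settings are among the 285 alternatives. Quantile normalization called 6 for DOM, adding Gstp1 and Mgst2. The replicate block gave 3 between DOM and DOS, losing Gsto2, and changed no other count of members.

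Leaving out single arrays gave 4 to 5 members for DOM, 2 to 4 for DINCH (the lowest without DINCH replicate 1), 1 to 1 for MEHP, 0 to 0 for BDB and DOS, 2 to 3 between DOM and DOS, 3 to 4 between DOM and DINCH and 0 to 1 between MEHP and DINCH. The number of all genes called moved as well. In the order MEHP, DINCH, DOM, DOM and DOS, DOM and DINCH, MEHP and DINCH, with 202, 984, 2463, 1815, 2774 and 284 genes as reported, normexp called 115, 594, 1627, 1235, 1845 and 195, and no minimum fold 361, 1770, 4641, 2911, 4729 and 419. Without the filter 3 were called for MEHP, 97 for DINCH, 401 between DOM and DOS and 19 between MEHP and DINCH; with detection on 1 array 98 for MEHP, 609 for DINCH and 88 between MEHP and DINCH, and the replicate block gave 166 for the last. For MEHP it was 116, 88 and 88 without MEHP replicates 1, 2 and 4 and 97 without DMSO replicate 3; for DINCH 571 without DMSO replicate 3; between MEHP and DINCH 132, 83, 143 and 121 without MEHP replicates 1 to 4 and 177 and 160 without DINCH replicates 1 and 4. For BDB 42 were called with normexp, 120 in a joint fit of all groups, 100 with a slide block, 82 with a variance trend and 19 with brightest probes only, and for DOS 2 with normexp and 8 without DOS replicate 3, none of them a member. The causes were not tested.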
